A study of Mus musculus with 18 samples.

Results

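Myostatin, the transforming growth factors beta and the bone morphogenetic proteins are secreted ligands of 1 superfamily, and 10 of its genes are described here, of the 50600 gene rows in the files. They were chosen by name, as the rows whose Ensembl identifier gives the GENCODE M21 symbol Mstn, Inhba, Tgfb1, Tgfb2, Tgfb3, Bmp4, Fst, Acvr2b, Smad6 or Smad7. The cells were C2C12, a mouse myoblast line that withdraws from the cell cycle and fuses into myotubes when serum growth factors are removed. There were 3 stable lines: 1 transfected with px459-Mapk6sg and depleted of ERK3, 1 transfected with px459-Mk5sg and depleted of MK5, and a control line transfected with a control plasmid. The px459 plasmid carries Cas9 and a guide RNA, ERK3 (gene Mapk6) is a MAP kinase of the atypical class, and MK5 (gene Mapkapk5) is the kinase it partners with. Each line was sequenced in differentiation medium at day 2 (DM2) and in growth medium (GM), with 3 poly-A libraries in each of the 6 groups and 18 in all. All lines shared the C2C12 background and the transfection. The labels do not say whether a line is 1 clone or a pool, or whether libraries 1 to 3 are separate cultures, so p-values measure only the spread between these libraries.

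These ligands bind pairs of type I and type II serine/threonine kinase receptors, which phosphorylate Smad proteins that move to the nucleus. Myostatin, activins and TGF-beta act through Smad2 and Smad3 and are known to hold back muscle growth and myoblast differentiation, while BMPs act through Smad1, Smad5 and Smad9 and induce the Id genes. Follistatin traps activins and myostatin outside the cell. Smad6 and Smad7 are inhibitory Smads that are themselves induced by the pathway, Smad6 chiefly by BMPs and Smad7 chiefly by TGF-beta.

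Between 17.5 and 23.4 M reads per library were counted in genes, and 13939 genes had enough reads for a test. Levels are given as TPM, which is scaled for transcript length, where genes are compared with each other, and otherwise as CPM, the count scaled by the TMM-adjusted library size. Calls rest on edgeR's quasi-likelihood test, with p-values adjusted by the Benjamini-Hochberg method over all 13939 genes and a threshold of 0.05. Mapk6 was at 116 ± 19.6 CPM in ERK3-depleted DM2 cells, against 210 ± 7.84 CPM in control DM2 cells (SD, n = 3 each), a called log2 fold change of −0.86. In GM it was at 118 ± 14.0 CPM in ERK3-depleted cells and 131 ± 17.0 CPM in control cells, which did not pass the test (−0.15, adjusted p = 0.464). Mapkapk5, here in TPM as an exception, was at 33.3 ± 2.40 TPM in MK5-depleted GM cells, against 55.5 ± 3.46 TPM in control GM cells, and at 49.1 ± 8.12 TPM in MK5-depleted DM2 cells, against 69.2 ± 3.19 TPM in control DM2 cells (SD, n = 3 each). TPM of most genes was lower in MK5-depleted than in control DM2 cells, with a median log2 fold change of −0.29 on the log2(TPM + 1) scale, against −0.02 in GM. Mapkapk5 had few counts on the reverse strand, 11 to 32 per library, and from these the log2 fold change was −0.55 in MK5-depleted GM cells (adjusted p = 0.232, not called) and −0.68 at DM2 (adjusted p = 0.0443). In ERK3-depleted cells it was −0.51 in GM and −0.57 at DM2 (adjusted p 0.275 and 0.0751, neither called), so the RNA checks the line labels only in part. Myoblast and differentiating-muscle markers were present in every group, and all 5 endothelial markers were under 1 CPM in every group. The 5 myoblast markers summed to 1139 to 3136 CPM per library, the 5 fibroblast markers to 520 to 2102 CPM, and the 5 smooth muscle markers to 4651 to 8481 CPM, with Myh11, a defining smooth muscle gene, under 1 CPM in every group. The summed level of 5 differentiating-muscle markers (Myog, Mymk, Myh3, Ckm, Acta1) at DM2 was 1115 to 1810 CPM in ERK3-depleted cells and 1179 to 2178 CPM in MK5-depleted cells, against 2158 to 2522 CPM in control cells. At DM2 the share of reads outside genes was 3.79 to 7.73% in ERK3-depleted libraries and 2.84 to 4.11% in MK5-depleted libraries, against 2.44 to 3.05% in control libraries, and in GM it was 2.40 to 3.22% in all lines.

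Myostatin itself was not detected. Mstn (ENSMUSG00000026100.6, GRCm38 chromosome 1, 53061640 to 53068079, plus strand) had 0 counts in all 18 libraries and was listed at 0 TPM in each. A count of 0 allows up to 3 counts, which is 0.126 to 0.186 CPM per library, and this covers counting error only. Transcripts below that level were not detectable at this depth in any line, in DM2 or in GM. The gene therefore entered no test, and every count of members below is over the other 9. Of the 33 ligand genes listed for the pathway 12 had no count in any library, among them Nodal, Lefty2, Bmp2, Bmp7, Gdf3 and the activin and inhibin subunit genes Inhbc and Inhbe. The sequence before the start of Mstn is shown because the gene had no count in cells whose differentiating-muscle markers were high. E-boxes (CANNTG) are marked in capitals. These letters include the sites of MyoD-family factors, but not every match is such a site. It is from RefSeq (GRCm38.p6, chromosome 1, 53061390 to 53061639, plus strand) and ends at the base before the start site.
Mstn: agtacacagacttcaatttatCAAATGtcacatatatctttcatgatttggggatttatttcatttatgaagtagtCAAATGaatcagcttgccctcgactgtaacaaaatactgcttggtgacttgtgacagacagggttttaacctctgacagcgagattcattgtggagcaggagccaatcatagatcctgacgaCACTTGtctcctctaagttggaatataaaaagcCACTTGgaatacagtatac
The 250 bases held 4 CANNTG matches, starting 229, 174, 52 and 19 bases before the start site. CANNTG, searched on both strands, occurred in 72.3% of the 32851 RefSeq promoter windows of 300 bases, so a match is common.

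The other 9 genes spanned a wide range of levels, and their order was nearly the same in the 3 lines. In GM Tgfb1, the most widely expressed TGF-beta ligand, was highest in each line, at 86.7 ± 2.38 TPM in ERK3-depleted cells and 84.1 ± 7.96 TPM in MK5-depleted cells, against 94.96 ± 2.40 TPM in control cells (SD, n = 3 each). Tgfb3 came next, with ranges that did not overlap those of Tgfb1 in any line. Inhba and Bmp4 followed, and their ranges overlapped in the ERK3-depleted and MK5-depleted lines. Tgfb2 stood below these, and below it Fst, Smad6 and Smad7 lay together between 7.96 and 13.99 TPM over the 9 GM libraries. Acvr2b, an activin and myostatin type II receptor, was lowest of the detected genes, at 0.66 to 1.1 TPM in GM.

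At DM2 the order changed at the top. Tgfb3 averaged 83.2 TPM and Tgfb1 82.6 TPM in ERK3-depleted cells, and 92.2 and 86.5 TPM in MK5-depleted cells, with overlapping ranges in both lines. In control cells Tgfb3 averaged 149 ± 7.04 TPM, above Tgfb1 at 127 ± 6.61 TPM, with no overlap. Fst stood below both Inhba and Tgfb2 in MK5-depleted DM2 cells, with no overlap, while in control DM2 cells its range overlapped theirs. Smad6 was below Smad7 at DM2 in control and MK5-depleted cells. TPM values of most genes shifted between groups: the median log2 fold change of all genes on the log2(TPM + 1) scale was −0.46 for ERK3-depleted against control cells at DM2 and −0.29 for MK5-depleted against control cells at DM2. Changes between groups are therefore given below from the TMM-scaled counts, and TPM changes are given relative to the median of all genes or beside it.

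**Figure D1:**
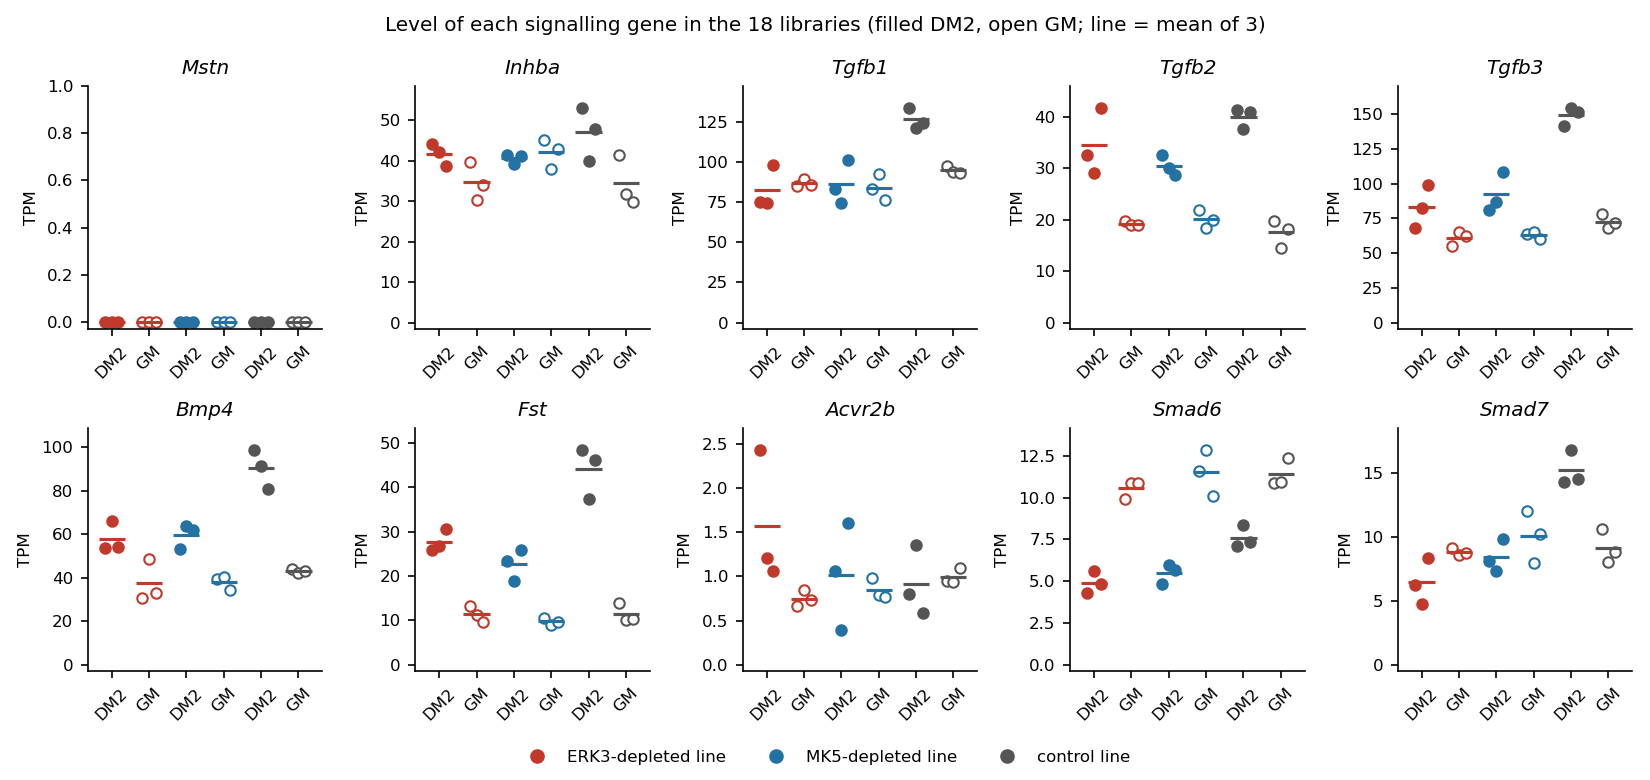
TPM of the 10 genes (y axis, linear) in each of the 18 libraries, grouped by line and medium (x axis), with a line at the mean of 3. Mstn lies at 0 throughout, Tgfb3, Bmp4, Fst and Tgfb2 lie higher in DM2 than in GM in each line, and Smad6 lies lower.

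The first comparison was DM2 against GM within each line, the change on differentiation. Of the 9 tested members 7 were called higher and 1 lower in the ERK3-depleted line, where 28.9% of all tested genes were called higher and 26.2% lower. In the MK5-depleted line 4 were called higher and 1 lower, against 24.6 and 24.8% of all genes. In the control line 6 were called higher and 1 lower, against 22.5 and 23.1% of all genes. On the log2(TPM + 1) scale 4 members were called higher and 2 lower in the ERK3-depleted line, 4 higher and 1 lower in the MK5-depleted line, and 7 higher and 1 lower in the control line. On that scale 12.8% of all genes were called higher and 41.8% lower in the ERK3-depleted line, 12.8 and 27.8% in the MK5-depleted line, and 24.9 and 12.1% in the control line. The median log2 fold change of the 9 was 0.75 in the ERK3-depleted line, 0.20 in the MK5-depleted line and 0.35 in the control line, beside medians of all tested genes of 0.01, 0.00 and −0.02.

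**Figure D2:**
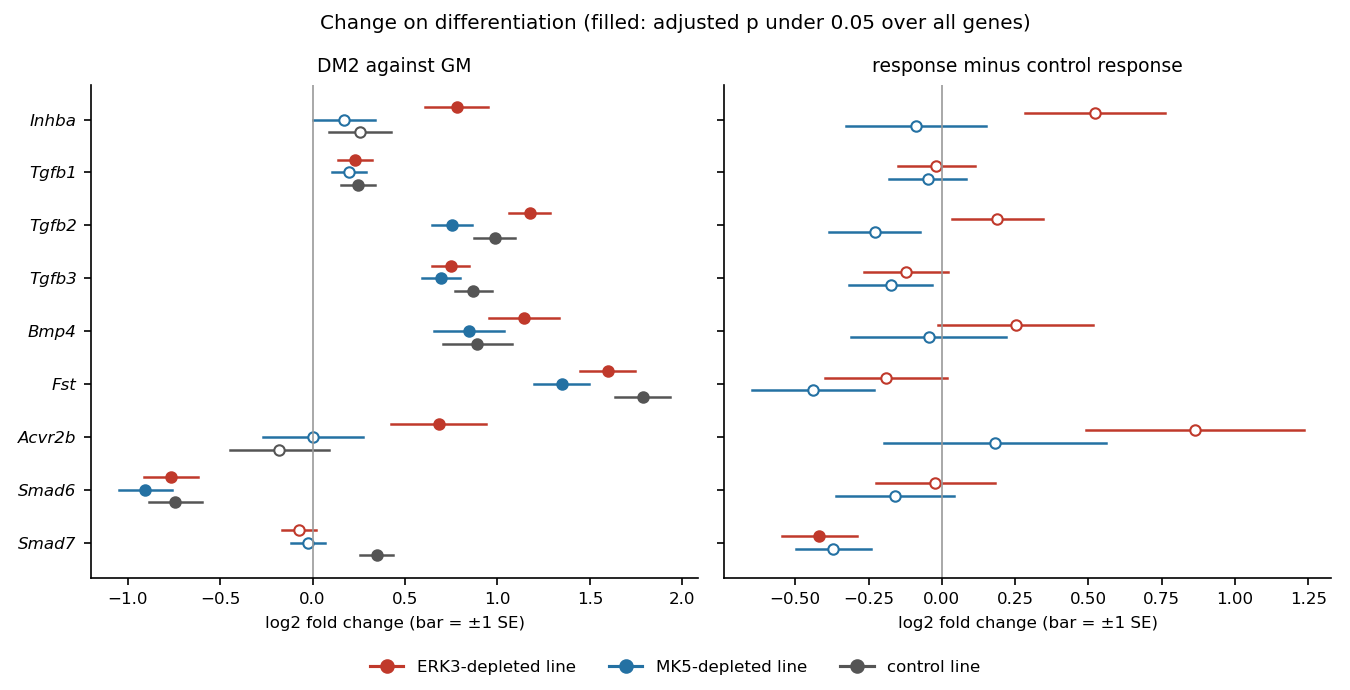
Left, log2 fold change of DM2 against GM for 9 genes in the 3 lines (x axis); right, the difference of each depleted line's change from that of the control line. Points are estimates, bars ±1 SE, and filled points have an adjusted p under 0.05 over all genes; Fst has the largest rise of the 9 in each line, and Smad7 in the ERK3-depleted line is the only filled point on the right.

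Among the ligands, Tgfb2 rose in every line. Tgfb2 (ENSMUSG00000039239.14, chromosome 1, 186622792 to 186705989, minus strand) encodes a TGF-beta isoform that, unlike the others, needs the co-receptor betaglycan for high-affinity binding. It was at 174, 178 and 181 CPM in ERK3-depleted DM2 libraries, against 85.4, 75.6 and 75.6 CPM in ERK3-depleted GM libraries. It was at 156, 144 and 117 CPM in MK5-depleted DM2 libraries, against 87.0, 77.6 and 82.3 CPM in MK5-depleted GM libraries. In control cells the values were 142, 127 and 149 CPM at DM2, against 82.2, 62.3 and 67.0 CPM in GM. All DM2 libraries lay above all GM libraries of the same line. The log2 fold changes were 1.17 ± 0.11 (SE) in the ERK3-depleted line, 0.75 ± 0.11 in the MK5-depleted line and 0.98 ± 0.11 in the control line, with adjusted p-values of 1.67e-07, 2.53e-05 and 1.08e-06.

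Bmp4, a BMP ligand (ENSMUSG00000021835.14, chromosome 14, 46383520 to 46390669, minus strand), also rose in every line. It was at 121, 167 and 86.9 CPM in ERK3-depleted DM2 libraries, against 50.3, 73.2 and 46.4 CPM in ERK3-depleted GM libraries. MK5-depleted libraries had 94.7, 115 and 86.8 CPM at DM2, against 56.3, 59.1 and 49.8 CPM in GM. Control libraries had 125, 117 and 106 CPM at DM2, against 62.1, 63.6 and 62.0 CPM in GM. The ERK3-depleted line had the widest spread, with library 2 highest in both media, but DM2 and GM did not overlap in any line. The log2 fold changes were 1.14 ± 0.19 (SE), 0.84 ± 0.19 and 0.89 ± 0.19 in the ERK3-depleted, MK5-depleted and control lines, with adjusted p-values of 7.72e-05, 0.00132 and 0.000838. With reads outside genes as a covariate the call in the ERK3-depleted line was lost (0.52, adjusted p = 0.0774). In that line the share was higher in every DM2 library than in any GM library, so share and medium cannot be fully told apart.

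The promoters of these co-rising ligands are shown with CANNTG in capitals, for comparison with that of Mstn. Both are on the minus strand of GRCm38.p6, from RefSeq, Tgfb2 at chromosome 1, 186705990 to 186706239, and Bmp4 at chromosome 14, 46390670 to 46390919, and both end at the base before the start site.
Tgfb2: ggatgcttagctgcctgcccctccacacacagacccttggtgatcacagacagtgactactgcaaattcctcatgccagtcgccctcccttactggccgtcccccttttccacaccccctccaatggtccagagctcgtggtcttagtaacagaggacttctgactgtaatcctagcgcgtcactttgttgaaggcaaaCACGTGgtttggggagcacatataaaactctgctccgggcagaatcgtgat
Bmp4: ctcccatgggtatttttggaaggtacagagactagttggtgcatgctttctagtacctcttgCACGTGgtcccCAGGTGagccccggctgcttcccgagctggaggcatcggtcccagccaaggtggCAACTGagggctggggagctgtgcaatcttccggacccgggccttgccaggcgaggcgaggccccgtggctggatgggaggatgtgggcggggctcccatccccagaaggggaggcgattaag
Tgfb2 held 1 CANNTG match, CACGTG, starting 51 bases before the start site, and Bmp4 held 3, of which the first, starting 188 bases before it, was also CACGTG. The promoters of Tgfb1, Inhba and Acvr2b held no CANNTG match in the whole 300-base window, which says only that these letters were not there. RefSeq promoter entries matched 7 of the 10 genes by symbol, all but Fst, Tgfb3 and Smad7.

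Tgfb3 (ENSMUSG00000021253.6, chromosome 12, 86056745 to 86079041, minus strand), another TGF-beta isoform, rose in every line to the highest CPM of the 10 genes. Its DM2 values were 250, 339 and 290 CPM in ERK3-depleted libraries, against 163, 192 and 169 CPM in ERK3-depleted GM libraries. They were 260, 278 and 304 CPM in MK5-depleted libraries, against 176, 184 and 161 CPM in MK5-depleted GM libraries. They were 336, 366 and 371 CPM in control libraries, against 208, 190 and 189 CPM in control GM libraries. On the log2 scale the rises were 0.75 ± 0.10 (SE) in the ERK3-depleted line, 0.69 ± 0.10 in the MK5-depleted line and 0.87 ± 0.10 in the control line, and the groups did not overlap (adjusted p 9.98e-06, 2.62e-05 and 1.72e-06). Tgfb1 (ENSMUSG00000002603.15, chromosome 7, 25687002 to 25705077, plus strand) changed least among the isoforms. It was at 172, 193 and 181 CPM in ERK3-depleted DM2 libraries, against 157, 165 and 144 CPM in GM. In MK5-depleted libraries it was at 167, 149 and 179 CPM at DM2, against 143, 162 and 127 CPM in GM, which overlapped. In control libraries it was at 199, 177 and 189 CPM at DM2, against 162, 164 and 152 CPM in GM. The log2 fold changes were 0.23 (adjusted p = 0.0451), 0.20 (adjusted p = 0.0857, not called) and 0.25 (adjusted p = 0.0371) in the ERK3-depleted, MK5-depleted and control lines. Those 2 calls were lost when single libraries were left out, in the control line for 5 of 6 libraries (largest adjusted p 0.135) and in the ERK3-depleted line for 4 of 6 (largest adjusted p 0.190).

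Inhba (ENSMUSG00000041324.13, chromosome 13, 16011851 to 16031621, plus strand) encodes the subunit that forms activin A, a Smad2 and Smad3 ligand. It was at 93.5, 99.8 and 59.2 CPM in ERK3-depleted DM2 libraries, against 57.8, 44.1 and 45.2 CPM in ERK3-depleted GM libraries. MK5-depleted libraries had 68.9, 65.3 and 57.1 CPM at DM2, against 59.7, 53.4 and 57.0 CPM in GM. Control libraries had 62.5, 45.6 and 56.4 CPM at DM2, against 53.6, 44.7 and 39.3 CPM in GM. It rose in the ERK3-depleted line, by 0.78 ± 0.17 on the log2 scale (adjusted p = 0.000858), where libraries 1 and 2 stood far above library 3. The changes in the MK5-depleted line (0.17) and the control line (0.26) did not pass the test. ERK3-depleted DM2 libraries 1 and 2 also had the largest shares of reads outside genes, 5.55 and 7.73% against 3.79% in library 3. Without these 2 libraries and MK5-depleted DM2 libraries 1 and 2, the change in the ERK3-depleted line was 0.27 (adjusted p = 0.296).

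Follistatin showed the largest change. Fst (ENSMUSG00000021765.7, chromosome 13, 114452290 to 114458951, minus strand) was at 70.0, 77.7 and 65.7 CPM in ERK3-depleted DM2 libraries, against 27.9, 23.3 and 19.3 CPM in ERK3-depleted GM libraries. MK5-depleted libraries had 54.5, 42.8 and 52.8 CPM at DM2, against 21.5, 18.6 and 18.9 CPM in GM. Control libraries had 86.8, 65.9 and 83.1 CPM at DM2, against 27.7, 21.0 and 19.7 CPM in GM. Every DM2 library was above every GM library, across lines too. The rise was 3.02-fold in the ERK3-depleted line, 2.54-fold in the MK5-depleted line and 3.45-fold in the control line (log2 fold changes of 1.60, 1.35 and 1.79, each ± 0.15 SE; adjusted p 1.58e-07, 1.23e-06 and 2.92e-08). These calls, and those of Tgfb2, Tgfb3 and Smad6, held in all 3 lines under all 20 or 21 alternatives run for each.

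Acvr2b (ENSMUSG00000061393.14, chromosome 9, 119402118 to 119434995, plus strand) had few reads, 22 to 57 counts per library. Its DM2 values were 2.89, 3.54 and 1.71 CPM in ERK3-depleted libraries, against 1.72, 1.69 and 1.64 CPM in ERK3-depleted GM libraries. MK5-depleted libraries had 1.77, 1.201 and 1.74 CPM at DM2, against 1.76, 1.55 and 1.37 CPM in GM, and control libraries had 1.21, 1.81 and 1.148 CPM at DM2, against 1.39, 1.54 and 1.80 CPM in GM. Only libraries 1 and 2 of the ERK3-depleted DM2 group stood out, the same that had the most reads outside genes. The ERK3-depleted line gave a called log2 fold change of 0.68 ± 0.26 (SE; adjusted p = 0.0309), which was lost under 13 of 21 alternatives. The changes in the MK5-depleted line (0.00) and the control line (−0.18) did not pass the test.

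Of the inhibitory Smads, Smad6 fell in every line. Smad6 (ENSMUSG00000036867.7, chromosome 9, 63953076 to 64022059, minus strand), which blocks BMP receptors and is a BMP target, was at 13.5, 20.3 and 13.2 CPM in ERK3-depleted DM2 libraries, against 26.1, 27.9 and 25.9 CPM in ERK3-depleted GM libraries. MK5-depleted libraries had 13.3, 17.3 and 14.2 CPM at DM2, against 27.8, 31.8 and 23.9 CPM in GM. Control libraries had 15.0, 17.1 and 16.2 CPM at DM2, against 25.9, 27.3 and 27.7 CPM in GM. No DM2 library reached the lowest GM library in any line. In log2 terms it changed by −0.77 ± 0.14 (SE) in the ERK3-depleted line, −0.90 ± 0.14 in the MK5-depleted line and −0.74 ± 0.14 in the control line, with adjusted p-values of 0.000253, 6.45e-05 and 0.000349. Smad6 thus fell in the same libraries in which Bmp4 rose.

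The promoter of Smad6 is shown because it holds GTCTAGAC, the palindromic Smad-binding letters, marked in capitals at its end. The stretch is from RefSeq (GRCm38.p6, chromosome 9, 64022056 to 64022309, minus strand) and runs to the fourth base after the start site.
Smad6: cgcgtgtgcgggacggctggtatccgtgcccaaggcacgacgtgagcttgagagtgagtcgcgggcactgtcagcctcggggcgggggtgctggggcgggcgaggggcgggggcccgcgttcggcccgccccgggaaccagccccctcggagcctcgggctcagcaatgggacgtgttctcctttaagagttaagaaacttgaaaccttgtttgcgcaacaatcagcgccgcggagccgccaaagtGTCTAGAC
The match spans the start site, with 4 bases on either side of it. GTCTAGAC reads the same on both strands and occurred in 70 of the 32851 promoter windows, or 0.213%. None of the other 6 members with an entry held it, and Smad7, Fst and Tgfb3 had no entry and were not searched. The shorter letters CAGAC, searched on both strands, occurred in 49.6% of all windows, and in those of Mstn, Tgfb2 and Acvr2b among the members. A match in letters is not a measured binding site.

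Smad7 (ENSMUSG00000025880.11, chromosome 18, 75367529 to 75395935, plus strand), which blocks TGF-beta and BMP receptors and feeds back on TGF-beta, was called higher in the control line and was not called in the depleted lines. It was at 29.7, 25.8 and 32.1 CPM in ERK3-depleted DM2 libraries, against 33.6, 27.4 and 31.1 CPM in ERK3-depleted GM libraries. MK5-depleted libraries had 30.2, 32.1 and 30.3 CPM at DM2, against 30.9, 30.3 and 32.9 CPM in GM. Control libraries had 38.6, 37.6 and 38.0 CPM at DM2, against 30.6, 27.9 and 31.4 CPM in GM. The 3 control DM2 libraries were above the other 15. Its log2 fold changes were −0.07 (adjusted p = 0.526) in the ERK3-depleted line, −0.02 (adjusted p = 0.845) in the MK5-depleted line and 0.35 ± 0.09 (SE; adjusted p = 0.00425) in the control line. The control rise was not called once trends with gene length and GC content were removed (0.17, adjusted p = 0.173).

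The difference between lines in these responses was tested directly. For the ERK3-depleted response minus the control response, 1 of 9 members was called, Smad7, which was lower by 0.42 ± 0.13 on the log2 scale (SE; adjusted p = 0.0233); 14.6% of all tested genes were called higher and 14.0% lower. Leaving out ERK3-depleted GM library 1 or 3, control GM library 2, or ERK3-depleted DM2 library 1 or 2 ended this call (adjusted p 0.0519 to 0.0709), and without ERK3-depleted DM2 library 3 the members called numbered 3. With reads outside genes as a covariate 0 members and 200 genes were called. That share was higher in every ERK3-depleted DM2 library than in any control DM2 library, so it cannot be fully told apart from the depletion. For the MK5-depleted response minus the control response, edgeR called 0 of 9 members, where 8.54% of all tested genes were called higher and 9.48% lower. In that comparison 2 members, Fst (−0.44 ± 0.21, adjusted p = 0.140) and Smad7 (−0.37 ± 0.13, adjusted p = 0.0521), had an unadjusted p under 0.05, and DESeq2 called Smad7. Limma-trend on log2(TPM + 1) called 3 members, where it called 2.87% of all genes higher and 19.5% lower. With the replicate number as a block Inhba was also called for the ERK3-depleted response (0.51, adjusted p = 0.0449).

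The wider pathway was counted from 6 lists by role, which include the members. The background for these counts of DM2 against GM is 28.9% of all tested genes called higher and 26.2% lower in the ERK3-depleted line, 24.6 and 24.8% in the MK5-depleted line, and 22.5 and 23.1% in the control line. For counts on the log2(TPM + 1) scale it is 12.8 and 41.8% in the ERK3-depleted line, 12.8 and 27.8% in the MK5-depleted line, and 24.9 and 12.1% in the control line. Of 12 tested ligand genes 10 rose and 0 fell in the ERK3-depleted line, 8 rose and 0 fell in the MK5-depleted line, and 8 rose and 0 fell in the control line. The list medians were 1.09, 0.72 and 0.82 on the log2 scale, beside medians of all tested genes of 0.01, 0.00 and −0.02. Of 10 ligands tested on the log2(TPM + 1) scale 6 were called higher and 1 lower in the ERK3-depleted line, 5 and 0 in the MK5-depleted line, and 8 and 0 in the control line. Inhbb, which encodes the subunit of activin B, averaged 381 ± 49.4 CPM in ERK3-depleted DM2 cells, against 114 ± 1.04 CPM in ERK3-depleted GM cells. It averaged 293 ± 27.3 CPM in MK5-depleted DM2 cells, against 90.5 ± 4.38 CPM in MK5-depleted GM cells, and 363 ± 27.6 CPM in control DM2 cells, against 124 ± 8.49 CPM in control GM cells. The rises were 3.34-, 3.23- and 2.92-fold (adjusted p 5.03e-10, 6.01e-10 and 8.08e-10). Gdf11, a ligand closely related to myostatin, rose by 0.80, 0.63 and 0.72 on the log2 scale in the ERK3-depleted, MK5-depleted and control lines, so that a relative of Mstn was present where Mstn was not; it averaged 97.6 ± 12.9, 86.7 ± 5.91 and 82.6 ± 5.05 CPM at DM2 in these lines.

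Of 11 tested receptor genes 5 rose and 3 fell in the ERK3-depleted line, 1 rose and 3 fell in the MK5-depleted line, and 6 rose and 1 fell in the control line. Tgfbr2, the TGF-beta type II receptor, rose in each, by 0.57, 0.64 and 0.90 on the log2 scale in the ERK3-depleted, MK5-depleted and control lines. On the log2(TPM + 1) scale it was −0.03 (adjusted p = 0.931) in the ERK3-depleted line, where the median of all genes was −0.27. It was 0.36 (adjusted p = 0.200) in the MK5-depleted line, where the median was −0.15. On that scale 0 of 11 receptors were called higher and 3 lower in the ERK3-depleted line, 0 and 2 in the MK5-depleted line, and 6 and 1 in the control line. Of 27 extracellular modulators 14 rose and 6 fell in the ERK3-depleted line, 15 rose and 7 fell in the MK5-depleted line, and 10 rose and 3 fell in the control line. The BMP antagonist gene Nog, at a low level, rose by 2.23 in the ERK3-depleted line and 1.79 in the MK5-depleted line, and Chrd, another BMP antagonist gene, rose by 2.05 in the MK5-depleted line and 1.92 in the control line. Of 20 Smads and their regulators 3 rose and 6 fell in the ERK3-depleted line, 4 rose and 7 fell in the MK5-depleted line, and 9 rose and 2 fell in the control line. Among the 20, on the log2(TPM + 1) scale, 1 was called higher and 12 lower in the ERK3-depleted line, 2 and 5 in the MK5-depleted line, and 8 and 1 in the control line. Over all genes, too, most calls on that scale were lower in the depleted lines and higher in the control line.

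Of 19 TGF-beta targets 8 rose and 2 fell in the ERK3-depleted line, 10 rose and 1 fell in the MK5-depleted line, and 9 rose and 2 fell in the control line. Postn, a matrix protein gene induced by TGF-beta, rose 6.43-, 5.67- and 6.41-fold in the ERK3-depleted, MK5-depleted and control lines. Of 16 BMP targets 3 rose and 7 fell in the ERK3-depleted line, 2 rose and 8 fell in the MK5-depleted line, and 4 rose and 7 fell in the control line. The difference between these lists was not tested. On the log2(TPM + 1) scale 5 of 19 TGF-beta targets were called higher and 4 lower in the ERK3-depleted line, 6 and 1 in the MK5-depleted line, and 11 and 1 in the control line. On that scale 2 of 13 BMP targets were called higher and 8 lower in the ERK3-depleted line, 1 and 8 in the MK5-depleted line, and 3 and 3 in the control line. Among the BMP targets Id3, a classic one and inhibitor of bHLH factors, fell to 181 ± 16.5 CPM in control DM2 cells, against 272 ± 17.8 CPM in control GM cells (−0.58, adjusted p = 0.00912). Dlx3, a homeobox gene, fell by 1.59 in the ERK3-depleted line and by 1.96 in the control line on the log2 scale. The summed level of the 5 fibroblast markers moved with the TGF-beta targets, and the lists share Col1a1. The sum was 1851 to 2024 CPM in ERK3-depleted DM2 libraries, against 653 to 738 CPM in ERK3-depleted GM libraries. It was 1620 to 2102 CPM in MK5-depleted DM2 libraries, against 691 to 836 CPM in MK5-depleted GM libraries, and 1212 to 1501 CPM in control DM2 libraries, against 520 to 709 CPM in control GM libraries. Col1a1 alone made up most of these sums in the depleted lines. It averaged 1844 CPM in ERK3-depleted DM2 cells, against 670 CPM in GM, and 1723 CPM in MK5-depleted DM2 cells, against 721 CPM in GM. The part of fibroblast markers in these counts was not tested, and in these bulk samples a change in the share of a cell type and a change in RNA per cell cannot be told apart.

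The next comparison was each depleted line against control in GM, before differentiation. In ERK3-depleted GM cells edgeR called 0 of 9 members, against 6.79% of all tested genes called in either direction, with 0 members at an unadjusted p under 0.05, and 0 called by DESeq2 or by limma-trend on log2(TPM + 1). The log2 fold changes ran from −0.17 (Tgfb3) to 0.16 (Tgfb2). In MK5-depleted GM cells edgeR also called 0 of 9 members, against 8.45% of all tested genes, with 0 at an unadjusted p under 0.05 and 0 called by either of the other tools. The changes ran from −0.21 (Fst) to 0.31 (Inhba). The shares of all genes rested on single libraries. For ERK3-depleted cells the 946 genes called became 0 without ERK3-depleted GM library 1, 0 without control GM library 2 and 73 without control GM library 3, with 2254, 2263 and 2601 at an unadjusted p under 0.05. For MK5-depleted cells the 1178 became 42 without control GM library 2, 156 without MK5-depleted GM library 3, 212 without MK5-depleted GM library 1 and 358 without control GM library 3. Limma-trend on log2(TPM + 1) called 36 and 168 genes. Intervals of ±2 SE were −0.26 to 0.35 for Fst and −0.15 to 0.22 for Smad7 in the ERK3-depleted line, and −0.52 to 0.09 and −0.11 to 0.25 in the MK5-depleted line. Both lines shared the same control libraries. Among other pathway genes Postn rose by 0.76 in ERK3-depleted and by 1.01 in MK5-depleted GM cells, and Id2, a BMP target, rose by 0.76 and 0.71. Thbs1, which encodes an activator of latent TGF-beta, fell by 0.64 in ERK3-depleted and by 0.56 in MK5-depleted GM cells, and Tgfbr2 fell by 0.32 and 0.40. Without control GM library 2 none of these 4 genes was called in either line, and without ERK3-depleted GM library 1 or control GM library 3 none was called for ERK3-depleted cells. The Tgfbr2 call in ERK3-depleted cells was lost whichever single library was left out (adjusted p 0.0539 to 0.171). So was the Thbs1 call in MK5-depleted cells (adjusted p 0.0596 to 0.128). Limma-trend on log2(TPM + 1) called 0 of these 4 genes for ERK3-depleted cells, and 4 of the 9 named pathway genes for MK5-depleted cells.

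At DM2 the depleted lines stood apart from control for several members. In ERK3-depleted cells 3 of 9 were called higher (Acvr2b, Inhba, Tgfb2) and 2 lower (Smad7, Tgfb3), where 28.0% of all tested genes were called higher and 27.8% lower. In MK5-depleted cells 0 were called higher and 3 lower (Fst, Smad7, Tgfb3), where 22.2% of all tested genes were called higher and 22.9% lower. On the log2(TPM + 1) scale 0 members were called higher and 6 lower in ERK3-depleted cells (Tgfb1, Tgfb3, Fst, Bmp4, Smad7 and Smad6), and 0 higher and 7 lower in MK5-depleted cells, where the medians of all genes were −0.46 and −0.29. On that scale 8.81% of all genes were called higher and 58.5% lower in ERK3-depleted cells, and 7.72 and 43.2% in MK5-depleted cells. With 9 members, these counts do not set the members apart from all genes.

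**Figure D3:**
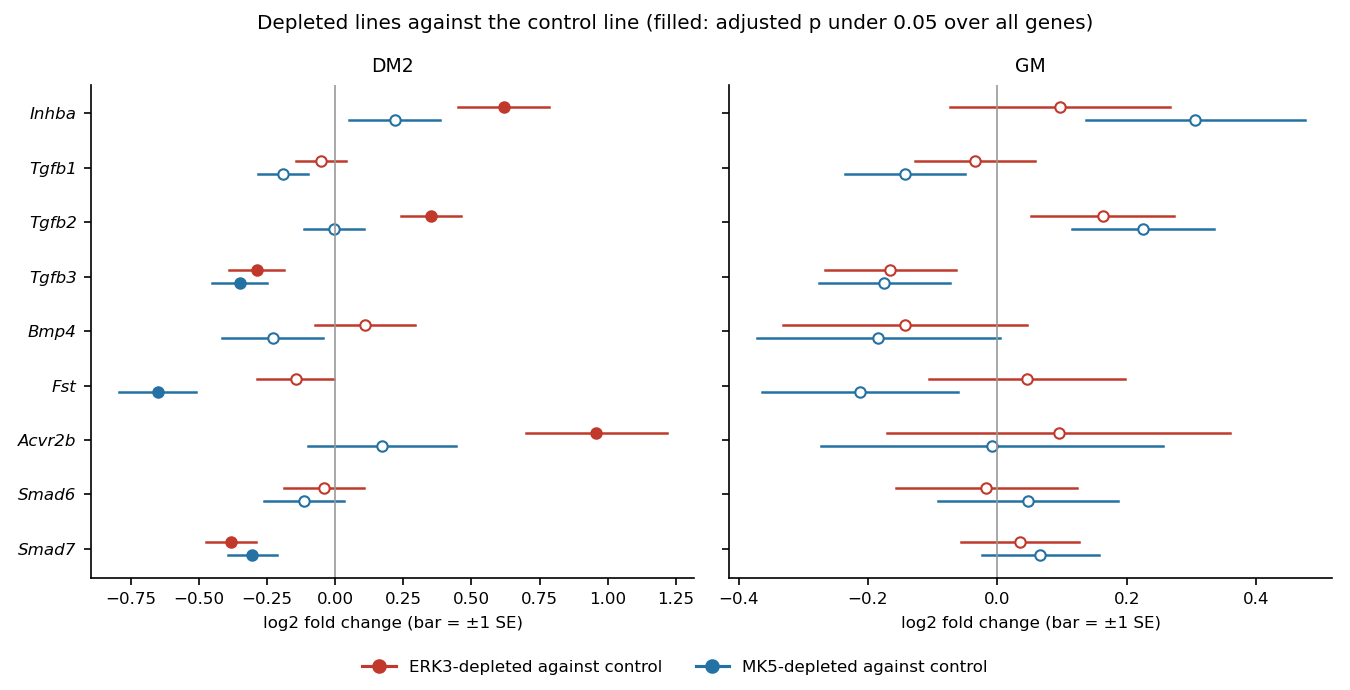
Log2 fold change of each depleted line against the control line at DM2 (left) and in GM (right) for 9 genes. Points are estimates, bars ±1 SE, and filled points have an adjusted p under 0.05 over all genes; all points in GM are open, and Smad7 and Tgfb3 are filled on the lower side for both lines at DM2.

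Smad7 and Tgfb3 were lower in both depleted lines, which share the control libraries. Smad7 fell to 29.7, 25.8 and 32.1 CPM in ERK3-depleted and 30.2, 32.1 and 30.3 CPM in MK5-depleted DM2 libraries, against 38.6, 37.6 and 38.0 CPM in control DM2 libraries, with no overlap. The log2 fold changes were −0.38 ± 0.09 (SE; adjusted p = 0.00176) for the ERK3-depleted line and −0.30 ± 0.09 (adjusted p = 0.0112) for the MK5-depleted line. On the log2(TPM + 1) scale, relative to the median of all genes, they were −0.69 and −0.49. Tgfb3 was at 250, 339 and 290 CPM in ERK3-depleted and 260, 278 and 304 CPM in MK5-depleted DM2 libraries, against 336, 366 and 371 CPM in control DM2 libraries. ERK3-depleted library 2 reached the lowest control library, and the MK5-depleted libraries did not. The changes were −0.29 ± 0.10 (adjusted p = 0.0213) and −0.35 ± 0.10 (adjusted p = 0.00914), and relative to the median on the TPM scale −0.39 and −0.40. The ERK3 call was lost with unstranded counts (adjusted p = 0.0547), and the gene overlaps Ttll5 on the other strand; without ERK3-depleted DM2 library 1 it was −0.18 (adjusted p = 0.145), and without control DM2 library 2 or 3 the adjusted p was 0.0609 or 0.0663. Without MK5-depleted DM2 library 1 the MK5 calls of Tgfb3 (adjusted p = 0.0619) and Smad7 (adjusted p = 0.0558) were lost.

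Fst was lower in MK5-depleted DM2 cells, at 54.5, 42.8 and 52.8 CPM, against 86.8, 65.9 and 83.1 CPM in control DM2 cells, with no overlap (−0.65 ± 0.14, adjusted p = 0.00146, or 1.57-fold lower). In ERK3-depleted DM2 cells it was at 70.0, 77.7 and 65.7 CPM and did not pass the test against control (−0.14, ±2 SE interval −0.43 to 0.14). Tgfb2 was higher in ERK3-depleted DM2 cells, at 174, 178 and 181 CPM against 142, 127 and 149 CPM in control DM2 cells (0.35 ± 0.11, adjusted p = 0.0105), and leaving out control DM2 library 2 ended that call (adjusted p = 0.0607). Inhba was at 93.5, 99.8 and 59.2 CPM against 62.5, 45.6 and 56.4 CPM (0.62 ± 0.17, adjusted p = 0.00470), and the ranges overlapped. Acvr2b was at 2.89, 3.54 and 1.71 CPM against 1.21, 1.81 and 1.148 CPM (0.96 ± 0.26, adjusted p = 0.00441), from 30 to 57 counts per library against 24 to 39 counts. On the log2(TPM + 1) scale the signs of Tgfb2 (−0.22) and Inhba (−0.16) turned, and Acvr2b stood at 0.40. Limma-trend called none of these genes there (adjusted p 0.134, 0.291 and 0.116). Relative to the median of all genes on that scale they were 0.24, 0.30 and 0.87. Acvr2b averaged 1.57 TPM in ERK3-depleted and 0.917 TPM in control DM2 cells, so the added 1 weighs heavily on its value. Bmp4 (0.11) and Smad6 (−0.04) did not pass the test in ERK3-depleted DM2 cells, and neither did Tgfb1 (−0.05).

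Some of these calls were lost when the share of reads outside genes was taken into account. At DM2 that share was 3.79 to 7.73% in ERK3-depleted and 2.44 to 3.05% in control libraries, without overlap. The share and the depletion therefore cannot be fully told apart, and a lost call does not decide between them. With that share as a covariate 0 of 9 members were called for ERK3-depleted against control cells at DM2, where Inhba stood at 0.17, Acvr2b at 0.38, Tgfb2 at 0.31 (adjusted p = 0.188), Tgfb3 at −0.40 (adjusted p = 0.0699) and Smad7 at −0.22 (adjusted p = 0.238). For MK5-depleted cells 4 members were called with the covariate, Fst at −0.66 (adjusted p = 0.00200), Tgfb3 at −0.38 (adjusted p = 0.00586), Smad7 at −0.25 (adjusted p = 0.0301) and Bmp4 at −0.43 (adjusted p = 0.0284). The second check left out ERK3-depleted DM2 libraries 1 and 2 and MK5-depleted DM2 libraries 1 and 2, which leaves 1 library in each depleted DM2 group and assumes that it varies like the others. In ERK3-depleted cells Tgfb2 at 0.38 (adjusted p = 0.0485) and Tgfb3 at −0.31 (adjusted p = 0.0498) were then called. In MK5-depleted cells 0 members were called, with Fst at −0.56 (adjusted p = 0.0520), Smad7 at −0.32 (adjusted p = 0.0567) and Tgfb3 at −0.22 (adjusted p = 0.140). Over all genes the ERK3 calls at DM2 numbered 7776, against 2705 with the covariate and 3651 without the 4 libraries, and the MK5 calls numbered 6288, against 5934 and 4325.

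The depleted lines were also set against each other. In GM edgeR called 0 of 9 members for MK5-depleted against ERK3-depleted cells, and 0.0% of all tested genes, with 1167 genes and 0 members at an unadjusted p under 0.05. At DM2 it again called 0 of 9 members and 0.0% of all genes, with 2741 genes and 4 members at an unadjusted p under 0.05 (Fst, Tgfb2, Acvr2b and Inhba). DESeq2 called 2 genes in GM and 213 at DM2, limma-trend on log2(TPM + 1) called 0 in each, and neither called a member. Fst was at 54.5, 42.8 and 52.8 CPM in MK5-depleted DM2 libraries, against 70.0, 77.7 and 65.7 CPM in ERK3-depleted DM2 libraries (−0.51 ± 0.14, adjusted p = 0.137, ±2 SE interval −0.79 to −0.22). With the replicate number as a block, which pairs the libraries in this comparison, Fst was called (−0.51, adjusted p = 0.0366) and so was Tgfb2 (−0.36, adjusted p = 0.0475). Without ERK3-depleted DM2 library 3 edgeR called 4 of 9 members and 3597 of 14268 genes.

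The lists by role were counted for the depleted lines against control at DM2, where 28.0% of all tested genes were called higher and 27.8% lower in ERK3-depleted cells, and 22.2 and 22.9% in MK5-depleted cells. Here and in the next paragraphs genes are again named by the size of their change in each comparison. A gene given for 1 depleted line may therefore also have changed in the other. Of 11 receptor genes 2 rose and 8 fell in ERK3-depleted cells, and 0 rose and 8 fell in MK5-depleted cells, with list medians of −0.64 and −0.49 beside 0.01 and 0.00 for all tested genes. Bmpr1a, a BMP type I receptor, averaged 112 ± 24.8 CPM in ERK3-depleted and 124 ± 12.4 CPM in MK5-depleted DM2 cells, against 230 ± 15.1 CPM in control DM2 cells (−1.04 and −0.89). Tgfbr1, the TGF-beta type I receptor, averaged 37.6 ± 2.69 CPM in ERK3-depleted DM2 cells, against 63.6 ± 4.86 CPM in control DM2 cells (−0.76, adjusted p = 0.000167). Tgfbr3, which encodes betaglycan, the co-receptor of TGF-beta2, averaged 10.2 ± 2.18 CPM in MK5-depleted DM2 cells, against 19.0 ± 3.11 CPM in control DM2 cells (−0.89, adjusted p = 0.000508).

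Of the Smads and their regulators 1 of 20 was higher and 14 were lower in ERK3-depleted cells, and 0 were higher and 11 lower in MK5-depleted cells (medians −0.37 and −0.23). Smad3, the main TGF-beta and activin effector in muscle cells, averaged 98.2 ± 15.5 CPM in ERK3-depleted DM2 cells, against 177 ± 8.15 CPM in control DM2 cells (−0.85, adjusted p = 1.65e-05). Skil, which encodes the Smad co-repressor SnoN, averaged 62.2 ± 15.6 CPM in ERK3-depleted and 70.3 ± 3.03 CPM in MK5-depleted DM2 cells, against 119 ± 11.4 CPM in control DM2 cells (−0.94 and −0.76). Among 27 extracellular modulators 7 were higher and 10 lower in ERK3-depleted cells, and 2 higher and 10 lower in MK5-depleted cells. Nog averaged 8.86 ± 2.92 CPM in ERK3-depleted and 8.52 ± 1.53 CPM in MK5-depleted DM2 cells, against 2.45 ± 0.857 CPM in control DM2 cells, or 3.63- and 3.48-fold higher. Crim1, a membrane protein gene whose product binds BMPs, fell 2.52- and 2.24-fold, to 19.0 ± 2.22 and 21.3 ± 2.92 CPM, against 47.8 ± 0.733 CPM in control DM2 cells.

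Of 19 TGF-beta targets 8 were higher and 4 lower in ERK3-depleted DM2 cells, and 8 higher and 3 lower in MK5-depleted DM2 cells. Thbs1 fell by 1.17 and 0.90 on the log2 scale, while Fn1, the fibronectin gene, rose by 0.91 in MK5-depleted cells. Of 16 BMP targets 6 were higher and 5 lower in ERK3-depleted cells, and 4 higher and 6 lower in MK5-depleted cells, and Hey1 rose by 1.003 and 1.24. On the log2(TPM + 1) scale its ERK3 change was 0.31 (adjusted p = 0.234), where the median of all genes was −0.46. Of 12 ligands 4 were higher and 1 lower in ERK3-depleted cells, and 0 higher and 2 lower in MK5-depleted cells, where Inhbb was lower along with Tgfb3 (293 ± 27.3 against 363 ± 27.6 CPM, −0.31).

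The list counts in ERK3-depleted cells were smaller with reads outside genes as a covariate, which cannot be fully told apart from the depletion at DM2. With the covariate 0 of 12 ligands were called, 0 receptors were higher and 3 lower, 3 modulators were higher and 4 lower, and 0 Smads and regulators were higher and 7 lower. For the targets the counts were 6 higher and 2 lower for TGF-beta and 3 higher and 2 lower for BMP. Without the 4 libraries the ERK3 counts were 1 higher and 1 lower for ligands, 0 and 4 for receptors, 3 and 7 for modulators, 0 and 7 for Smads and regulators, 5 and 2 for TGF-beta targets, and 3 and 2 for BMP targets. In MK5-depleted cells receptors were at 0 higher and 7 lower under both alternatives, and Smads and regulators were at 0 higher and 9 lower with the covariate and 0 and 8 without the 4 libraries. On the log2(TPM + 1) scale more of each list was called lower, as was more of all genes. Over all genes 8.81% were called higher and 58.5% lower in ERK3-depleted cells, and 7.72 and 43.2% in MK5-depleted cells. In ERK3-depleted cells there were 0 ligands higher and 6 lower, 0 receptors and 9, 2 modulators and 16, 0 Smads and regulators and 19, 3 TGF-beta targets and 9, and 1 BMP target and 8. In MK5-depleted cells there were 0 ligands higher and 5 lower, 0 receptors and 9, 1 modulator and 11, 0 Smads and regulators and 18, 4 TGF-beta targets and 6, and 2 BMP targets and 8. These lists were read on libraries whose summed differentiating-muscle markers, given above, were below control in all ERK3-depleted libraries and overlapped control in MK5-depleted ones, and the part of that difference in the counts was not tested.

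**Figure D4:**
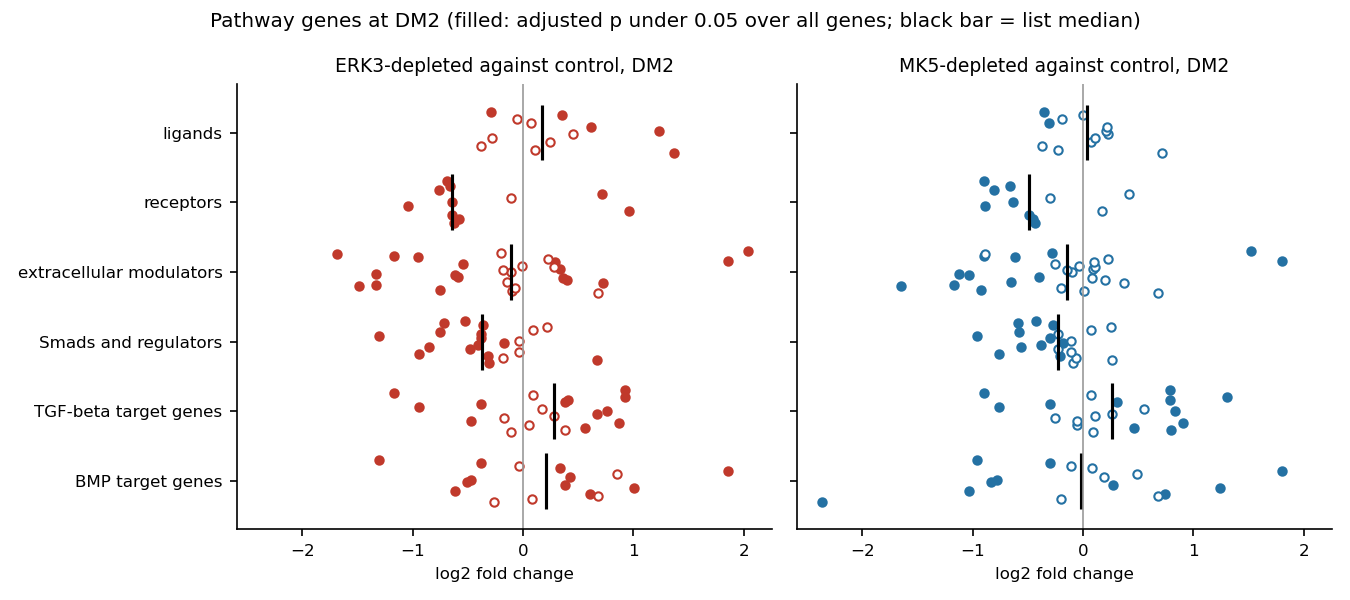
Log2 fold change at DM2 of every tested gene of the 6 lists (rows) in ERK3-depleted (left) and MK5-depleted cells (right) against control cells. Filled points have an adjusted p under 0.05 over all genes and black bars are list medians; receptors and Smads with their regulators lie mostly left of 0 in both panels, with medians of −0.64 and −0.37 on the left and −0.49 and −0.23 on the right.

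The make-up of the TGF-beta ligand pool was described from TPM, which compares genes per length and, as a share within a library, does not depend on the scaling between libraries. Tgfb1 made up 41.3 ± 1.29% of the summed Tgfb1, Tgfb2 and Tgfb3 TPM in ERK3-depleted DM2 cells, against 52.0 ± 1.03% in ERK3-depleted GM cells. It made up 41.2 ± 1.95% in MK5-depleted DM2 cells, against 50.2 ± 1.93% in MK5-depleted GM cells, and 40.1 ± 1.95% in control DM2 cells, against 51.3 ± 1.70% in control GM cells (SD, n = 3 each). The ranges did not overlap in any line, and the exact permutation p was 0.1 in each, the smallest that 3 against 3 libraries allow (two-sided). Tgfb3 took the larger part of the difference in the MK5-depleted and control lines, with 44.0 ± 2.38% at DM2 against 37.7 ± 0.577% in GM, and 47.2 ± 2.41% against 39.2 ± 0.744%. In ERK3-depleted cells Tgfb3 was 41.5 ± 2.69% at DM2 against 36.5 ± 1.74% in GM, and Tgfb2 was 17.2 ± 1.43% against 11.5 ± 0.751%. At DM2 the Tgfb2 share of all 3 ERK3-depleted libraries lay above the control share of 12.7 ± 0.568% (exact permutation p = 0.1), while the MK5-depleted share of 14.8 ± 2.41% overlapped control (exact permutation p = 0.4).

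Follistatin was set over the activin A subunit in the same way, a ratio chosen after the values were seen. Fst over Inhba in TPM was 0.670 ± 0.104 in ERK3-depleted and 0.558 ± 0.0733 in MK5-depleted DM2 cells, against 0.938 ± 0.0239 in control DM2 cells (SD, n = 3 each). All 6 depleted DM2 libraries, from 0.481 to 0.788, lay below the control libraries, from 0.914 to 0.961. No test is given, since the ratio was picked for its values. In GM the ratio was 0.328 ± 0.0429 in ERK3-depleted and 0.232 ± 0.00622 in MK5-depleted cells, against 0.334 ± 0.0129 in control cells. The MK5-depleted GM libraries lay below control and the ERK3-depleted ones overlapped it. The ratio was higher at DM2 than in GM in each line, 2.04 times in the ERK3-depleted line, 2.41 times in the MK5-depleted line and 2.81 times in the control line. From CPM, where the gap depends on how reads were counted, the DM2 difference from control was −0.56 for the ERK3-depleted and −0.65 for the MK5-depleted line, beside −0.27 and −0.38 from TPM. These differences have unlike bases, since the control DM2 mean was 1.44 from CPM and 0.938 from TPM. Divided by the control mean, the ERK3-depleted mean was 0.612 from CPM and 0.714 from TPM. The MK5-depleted mean was 0.551 and 0.595 of control.

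**Figure D5:**
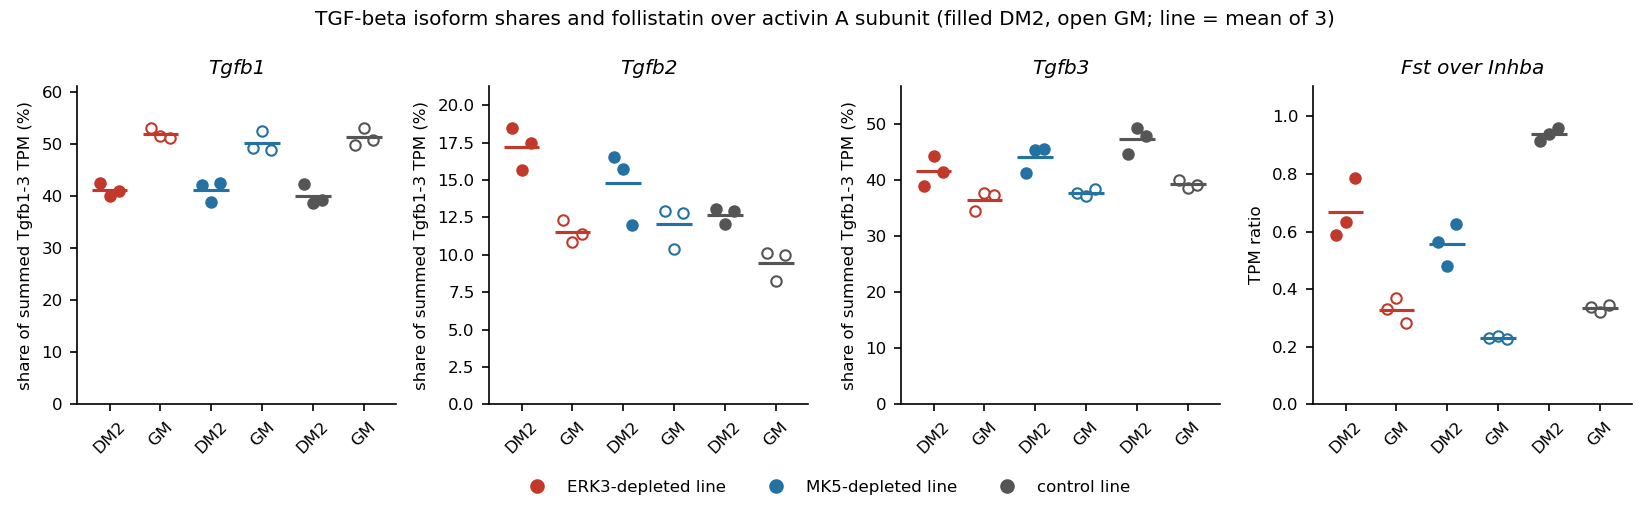
Shares of Tgfb1, Tgfb2 and Tgfb3 in their summed TPM (per cent) and the TPM ratio of Fst over Inhba in each library, by line and medium, with a line at the mean of 3. The Tgfb1 share lies near 40% at DM2 and near 50% in GM in every line, and the Fst ratio at DM2 is highest in the 3 control libraries.

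The genes whose log2 CPM ran most like each member over the 18 libraries are given as a description, since the libraries share lines and media. Fst ran most like Mfap5 (Pearson r = 0.988), a microfibril gene, and next like Arl6ip5 and Trim63, the muscle ubiquitin ligase gene. Tgfb3 ran most like Prelp (r = 0.985), a matrix proteoglycan gene, and Tgfb2 like Noct (r = 0.969), with Ttn, the titin gene, also on its list (r = 0.968). Bmp4 ran like Naglu (r = 0.973) and Tsc22d3, a glucocorticoid-induced gene, and Smad6 like the integrin gene Itga3 (r = 0.961). Smad7 ran like Atad1 (r = 0.953), Inhba like Kin (r = 0.934), Acvr2b like Ccdc191 (r = 0.899) and Tgfb1 like Brap (r = 0.872). No member was among the 3 genes most like another member.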

How the data were processed

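Poly-A RNA of 18 C2C12 libraries was extracted with Trizol and RNeasy columns and made into stranded libraries, per the labels' protocols. The deposited counts are whole reads per gene in unstranded, forward and reverse columns. The deposited expected counts and deposited TPM come from RSEM. Tools named are bcl2fastq 2.17, STAR 2.5.1b and RSEM 1.2.28 with build GRCm38, per the submitters' processing notes. The deposited interval bounds of each TPM were held as scores and entered no test. The reverse column was used, since 92.8 to 95.3% of stranded gene counts lay there. Overlapping genes of Tgfb2, Tgfb3, Bmp4 and Acvr2b all lie on the opposite strand. Summary lines (21.7 to 35.8% of 23.6 to 31.2 M reads) were left out of library sizes. Of 50600 identifiers 50376 matched GENCODE M21. No library copied another: squared differences between replicates were 7.98 to 87.5 times their counting variance.

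Genes were kept by filterByExpr, scaled by TMM and fitted with edgeR 4.0.16 in R 4.3.3, with 1 mean per group (residual degrees of freedom 12) and 11 contrasts, adjusted by Benjamini-Hochberg within each. Standard errors were the log2 fold change divided by the root of the test's F statistic. A prior count of 2 was used for log2 CPM. The fit was tested on simulated data. Count floors cover counting error only, while intervals of ±2 SE rest on the fitted spread between these libraries.

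The genes and lists were chosen with earlier results of these data known, from general knowledge. Named pathway genes are, in each list and comparison other than the response differences, up to 2 called non-members with the largest fold change and at least 5 CPM in the higher group; when 2 lists share a gene it counts under both. Alternatives were RLE factors, DESeq2 1.42.0, other filters, expected counts rounded to whole numbers, unstranded counts, limma-trend (limma 3.58.1) on log2(TPM + 1) and log2(TPM + 0.1), only the libraries of a contrast, a replicate block, length and GC offsets, a covariate for reads outside genes, an adjusted p under 0.01, and each library left out. Leaving out 4 DM2 libraries together, the Fst ratio and its CPM form were chosen after seeing the data.

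Replicate numbers come from the sample titles. Correlations of same-numbered libraries' deviations were over 0.1 for all 3 numbers in 5 of 9 pairs of groups. They included ERK3-depleted DM2 with GM, each depleted line with control in GM, and ERK3-depleted with control at DM2. MK5-depleted with ERK3-depleted cells at DM2 also passed, at 0.281, 0.342 and 0.498. Each MK5-depleted GM library also ran most like the same number in ERK3-depleted GM cells (0.0704, 0.344 and 0.206). The same held for MK5-depleted with control libraries at DM2 (0.165, 0.0553 and 0.0833). The numbers may thus pair libraries beyond the 5 pairs, and the main test used no replicate block. With the block 1905 genes were called for ERK3-depleted against control GM cells, against 946 without it. For MK5-depleted against ERK3-depleted cells at DM2 they numbered 368, against 0.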

Additional observations from a re-analysis of the deposited data

Results flagged for a closer look

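Smad7 was singled out because its change on differentiation differed between lines by a direct test. The ERK3-depleted response minus the control response was −0.42 on the log2 scale (edgeR, adjusted p = 0.0233). Its log2 fold change of DM2 against GM was −0.07 in the ERK3-depleted line and 0.35 in the control line, and all 3 ERK3-depleted DM2 libraries (25.8 to 32.1 CPM) were below all 3 control DM2 libraries (37.6 to 38.6 CPM). With reads outside genes as a covariate, which cannot be fully told apart from the depletion at DM2, the difference was −0.27 (adjusted p = 0.346).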

How the results depend on the processing

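Of the 9 tested members, Fst, Tgfb2, Tgfb3 and Smad6 kept their direction and call for DM2 against GM in all 3 lines under every alternative run. Over all members and comparisons 1876 fold changes kept direction and side of the threshold, 64 passed it newly, 72 no longer passed it, 8 changed sign with a call before or after, and 131 changed sign with no call in either. The 8 sign changes with a call came with limma-trend on log2(TPM + 1) and on log2(TPM + 0.1). Tgfb1 for DM2 against GM in the ERK3-depleted line stood at −0.0817 and −0.0827, where the median of all genes on log2(TPM + 1) was −0.27. For ERK3-depleted against control cells at DM2, Inhba stood at −0.162 and −0.165, Tgfb2 at −0.222 and −0.228, and Bmp4, not called in the main test, at −0.637 and −0.645, where the median of all genes was −0.46. Other alternatives also turned signs without a call. Bmp4 in that comparison was 0.11 in the main test, −0.55 with reads outside genes as a covariate and −0.42 without the 4 DM2 libraries. Counts of members called moved as follows. For DM2 against GM in the ERK3-depleted line (8 called) there were 4 with reads outside genes as a covariate and 5 without the 4 DM2 libraries. For ERK3-depleted against control cells at DM2 (5 called) there were 0 with the covariate, 2 without the 4 libraries, 3 at an adjusted p under 0.01 and 3 to 5 with 1 library left out. For MK5-depleted against control cells at DM2 (3 called) there were 7 on either TPM scale, 5 with length and GC offsets, 6 with these and the replicate block, 0 without the 4 libraries and 1 to 4 with 1 library left out (1 without MK5-depleted DM2 library 1). For MK5-depleted against ERK3-depleted cells at DM2 (0 called) there were 3 with no filter, 2 with the replicate block, 2 with length and GC offsets and the block, and 0 to 4 with 1 library left out. For the ERK3-depleted response minus the control response (1 called) there were 2 with no filter, 5 on either TPM scale, 2 with the replicate block (Inhba 0.51, adjusted p = 0.0449, beside Smad7), 0 with length and GC offsets, 3 with these and the block, 0 with the covariate, 0 without the 4 libraries, 0 at an adjusted p under 0.01 and 0 to 3 with 1 library left out. For the MK5-depleted response minus the control response (0 called) there was 1 with no filter, with DESeq2, with only the libraries of the comparison and with the replicate block, and 3 on either TPM scale. The Fst over Inhba difference at DM2 from control was −0.557 (ERK3-depleted) and −0.645 (MK5-depleted) from CPM, where the control mean was 1.44. From TPM, where the control mean was 0.938, it was −0.327 to −0.228 and −0.415 to −0.342 with 1 library left out. The cause of these differences was not tested. The block moved no other count of members called by more than 1.5 times. Depth limits Acvr2b, with 22 to 57 counts per library, and Mstn, with none.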
